A study of Homo sapiens with 7 samples.

Results

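The probes described here are the 8278 gene probes on a whole-transcriptome Agilent array that were designed against long intergenic noncoding RNA (lincRNA) loci, 19.5% of the 42405 gene probes of each array. They were chosen by the prefix of the probe name (A_19_), which uses no measured value. All 8278 were printed on 1 spot each. The names of 8263 give an hg19 locus and strand, 4087 on the forward and 4176 on the reverse strand, and 15 carry hg18 names, so that no hg19 locus is given for those. The hg19 probes cover 7405 loci when strand is counted, 6723 with 1 probe and 682 with up to 5. Without regard to strand there were 5291 regions, 2114 of them probed on both strands. Locus length ran from 70 to 1392201 bases, with a median of 12226. An hg19 gene annotation was not used here, so neighbouring genes, exons and introns are not given, and none of these probes had a gene symbol.

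LincRNAs are transcripts from loci between protein-coding genes. Like mRNAs, most are made by RNA polymerase II, and many are spliced, capped and polyadenylated, but they hold no long conserved reading frame. They are usually less abundant and more cell type-specific than mRNAs, and some act in the nucleus on chromatin or as scaffolds for proteins. A deadenylase is an exonuclease that shortens the poly(A) tail at the 3' end of an RNA, a step that often precedes decay. PARN also trims the 3' ends of some small nucleolar RNAs and of the telomerase RNA. CNOT6, CNOT6L and CNOT7 are catalytic subunits of the CCR4-NOT complex, and nocturnin (NOC, gene symbol NOCT) is a related protein with circadian expression.

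RNA came from NCI-H520, a cell line established from a squamous lung cancer. Cells had received 6 µg of a pLKO.1 plasmid, with puromycin at 6 µg/mL from 12 h, and were harvested at 72 h. There were 7 arrays, 1 per group, so that single-array differences have no replicate check: empty vector, a non-target shRNA with no known homology, and shRNAs against PARN, CNOT6, CNOT6L, CNOT7 and NOC. The labels list the same target accession for the CNOT6L and NOC shRNAs, untransfected cells were not analysed here, and no label names separate cultures.

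A level is the log2 processed signal of a probe minus the 75th percentile of its array. That percentile was lowest with CNOT6 shRNA, at 854, and highest with CNOT7 shRNA, at 2371, and no spot was saturated. Targeted mRNAs stood at 45.3% of the control mean for PARN, 88.2% for CNOT6, 64.8% for CNOT6L, 56.0% for CNOT7 and 76.0% for NOCT on the array of their own shRNA, and 1 of the 5, PARN, passed the 2-fold rule given below. CNOT6L and CNOT7 had 2 probes each, of which 1 is given. For NOCT the level was -3.63 with the empty vector, -4.03 with the non-target shRNA and -4.22 with NOC shRNA. With CNOT7 shRNA it stood at 80.8% of the control mean. Of the markers of the cell line, the epithelial genes EPCAM, KRT8, KRT18 and CDH1 and 4 of 8 squamous markers (SOX2, KRT6A, DSC3 and PKP1) were above background on all 7 arrays, whereas TP63, KRT5, KRT14 and DSG3 were so on 2, 4, 1 and 1 arrays. KRT6A was called higher with CNOT6L shRNA. Of 3 lung adenocarcinoma markers, NKX2-1 and NAPSA were above background on all 7 arrays and SFTPB on 6. The listed leukocyte (3), endothelial (2) and fibroblast (3) markers, read by 1 probe each, were also above background on all 7 arrays. So were 80.9% of the gene probes outside the lincRNA set. The monocyte gene CD14 stood at 3.62 to 4.52, and the part of RNA of such cells in the results was not tested. All arrays lay on 1 slide, where slide row 2 held the arrays of CNOT6L, CNOT7 and NOC shRNA and row 1 the other 4. For the arrays of row 2, group and slide row cannot be told apart.

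How many of the lincRNA probes carried signal was addressed first. In RNA from whole cultures, fewer cells that make a transcript and less of it per cell cannot be told apart. They were well above background, by the flag of the scanner software, for 89.4% of probes with the empty vector and 77.5% with the non-target shRNA. With the shRNAs against PARN, CNOT6, CNOT6L, CNOT7 and NOC the shares were 79.0%, 81.6%, 85.1%, 85.2% and 84.8%. On every array the share was below that of the other 34127 gene probes, by 2.54 points (empty vector) to 5.61 points (non-target). The shRNA arrays averaged 83.1% and the controls 83.4% (exact permutation test, two-sided, p = 0.857; 21 groupings, smallest possible p 0.0952). The empty-vector and non-target arrays, both controls, held the highest and the lowest share of all 7 arrays.

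**Figure D1:**
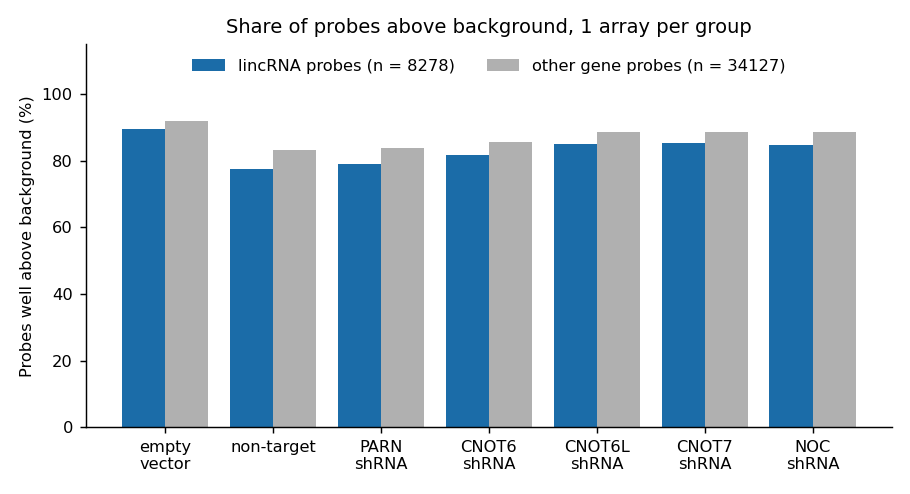
Share of probes well above background (%, y axis) on each of the 7 arrays (x axis), for the 8278 lincRNA probes and the 34127 other gene probes; 1 array per group, so there are no error bars. The lincRNA share is the lower of each pair, from 77.5% on the non-target array to 89.4% on the empty-vector array.

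All 7 arrays detected 6203 lincRNA probes (74.9%, against 80.9% of the other probes), and none detected 742 (8.96%, against 6.70%). Detection was partial for 1333. Of the 302 seen on a single array, 219 were seen only on the empty-vector array and 7 to 20 on each of the others. Another 301 were missed by 1 array, which was the non-target array for 187. Just 10 probes were above background on the 3 arrays of slide row 2 and none of row 1, and 0 the reverse. By the length of the locus, in 4 bins from the shortest to the longest, 75.6%, 79.4%, 75.7% and 68.9% of probes were above background on all 7 arrays. By chromosome it ran from 59.2% of 240 probes on chromosome 18 to 87.2% of 148 on chromosome 22. After the removal of 15 probes that the software had marked as outliers on an array, 6188 lincRNA probes entered the comparisons below, beside 27556 other probes.

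The median signal of a lincRNA probe ran from 65.0 with CNOT6 shRNA up to 152 with the empty vector, against 172 to 423 for the other gene probes. Probe brightness depends on the probe as well as on the RNA, so this is no ranking of abundance. The 5 probes with the highest mean level were on all arrays at 6.03 or above. Levels below are listed in the order empty vector, non-target, PARN, CNOT6, CNOT6L, CNOT7 and NOC shRNA. Probe A_19_P00809968 (chr18:5232477-5246926, reverse) gave 6.60, 6.79, 6.77, 7.30, 6.83, 6.71 and 6.71. Probe A_19_P00802027 (chr9:111293604-111458604, forward) gave 6.44, 6.81, 6.69, 7.08, 6.64, 6.59 and 6.71, and A_19_P00812158 (chr2:20722919-20803669, forward) gave 6.15, 7.06, 6.66, 7.43, 6.36, 6.03 and 6.46. These probes had their highest level on the CNOT6 shRNA array, by 0.27 to 0.47 over the next array on the log2 scale. Probe A_19_P00805216 (chr9:138785504-138809329, reverse) gave 6.15, 6.79, 6.65, 7.29, 6.37, 6.11 and 6.49, again highest with CNOT6 shRNA, and A_19_P00809873 (chr12:41584958-41825333, reverse) gave 6.18, 6.47, 6.44, 6.34, 6.49, 6.36 and 6.47. None of the 5 differed 2-fold from both controls with any shRNA. On the same strand of the first locus, A_19_P00325137 ran from -2.29 to -1.62 and was also highest with CNOT6 shRNA, while A_19_P00317308 ran from -6.41 to -5.17 and was highest with the empty vector.

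Between its lowest and highest array, a lincRNA probe spanned a median of 0.88 on the log2 scale, against 0.67 for the other probes. The range was within 2-fold for 3684 of the 6188 (59.5%, against 77.0% of the others) and over 4-fold for 355 (5.74%, against 2.73%). Probe A_19_P00318328 (chr16:11466321-11477551, forward) was the most even, with levels of -3.79, -3.81, -3.79, -3.70, -3.79, -3.70 and -3.67. Probes A_19_P00320056 (chr6:30258570-30262400, reverse) and A_19_P00315606 (chr19:45130718-45140077, reverse) spanned 0.16 each. At the other end stood probe A_19_P00811989, which spanned 6.56, and A_19_P00806265, which spanned 4.22. Both are described with the PARN shRNA array, on which they were highest. The next, A_19_P00327971 (chr6:86381806-86396056, forward), gave -0.53, 2.65, 0.43, 2.28, -1.51, -1.29 and -1.27. It was high on the non-target and CNOT6 shRNA arrays and low on all 3 arrays of slide row 2, without being called, since row 2 lay less than 2-fold below the empty vector.

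The locus of A_19_P00327971 was densely probed, with 27 overlapping lincRNA probes on the opposite and 10 on the same strand that were above background on all 7 arrays. The 27 on the opposite strand had a median mean level of 3.55 and spanned a median of 0.45 over the arrays. The 10 on the same strand had a median mean level of -2.59 and spanned 1.21, were all highest with CNOT6 shRNA, and in 7 cases were lower on each array of slide row 2 than on any of row 1, as were 13.4% of all probes tested (12.2% were higher on row 2, 25.7% either). Probe A_19_P00320500, on the same strand, gave -2.37, -2.22, -1.88, -1.54, -2.76, -2.66 and -2.49, so that the drop to slide row 2 was shared but smaller than in A_19_P00327971.

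The control arrays, which got no deadenylase shRNA, were then set against each other. Of the 6188 lincRNA probes, 1136 were at least 2-fold brighter with the empty vector and 41 with the non-target shRNA, 19.02% in all. Of all 33744 probes tested 11.1% differed so (10.5% and 0.557%), and of the other probes 9.30%. The median difference was 0.37 for lincRNA probes and 0.06 for the others. With quantile normalization 464 were higher and 94 lower (9.02%, against 5.98% of the other probes). The lincRNA median turned to -0.02 and the median of the others was -0.07. Without scaling 2578 were higher and 18 lower (42.0%, against 21.9% of the other probes). The controls were then compared within the 4 equal bins of mean level. From the dimmest bin to the brightest, 27.7%, 15.0%, 10.4% and 3.68% of lincRNA probes were 2-fold brighter with the empty vector, against 23.7%, 10.3%, 3.53% and 1.11% of the other probes. The share was above that of the other probes in every bin. The bins held 2337, 2389, 1136 and 326 lincRNA probes, so that most lay in the dimmer bins.

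**Figure D2:**
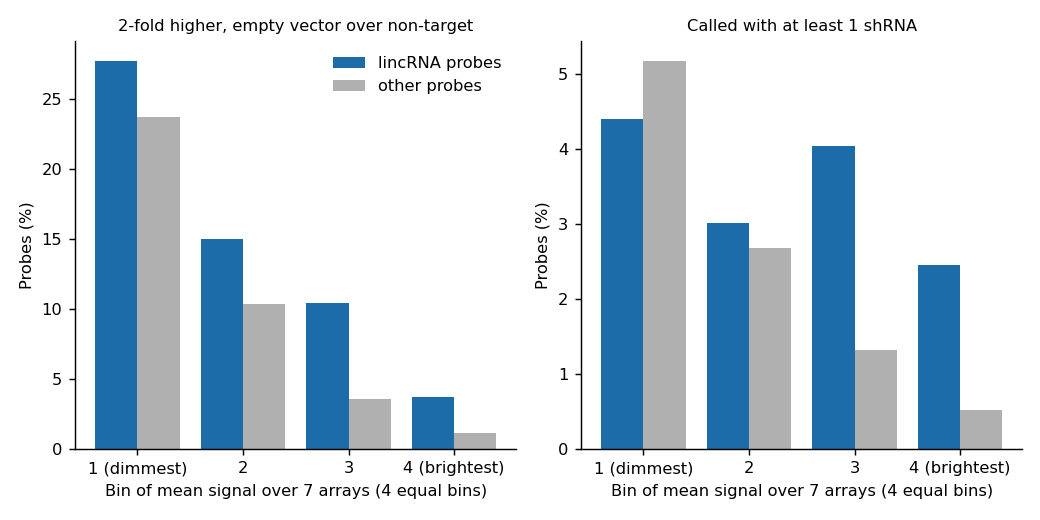
Share of probes (%, y axes) in each of 4 equal bins of mean level over the 7 arrays (x axes), for lincRNA and other probes above background on all arrays: left, at least 2-fold higher on the empty-vector than on the non-target array; right, called with at least 1 shRNA. Left, lincRNA probes exceed the others in every bin; right, they exceed them in the other bins and not in the dimmest (4.41% against 5.18%).

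Among the probes that differed most between the controls, A_19_P00322509 (chr8:101487948-101513375, reverse) gave -2.27, -6.39, -2.56, -2.85, -4.16, -4.05 and -4.23. It was lowest on the non-target array, high on the other 3 arrays of slide row 1, and in between on slide row 2. Of the other probes of that locus and strand, A_19_P00322510 gave -3.52, -6.73, -3.87, -3.98, -5.77, -5.77 and -5.75 and A_19_P00322511 gave -5.32, -8.28, -5.44, -5.65, -7.81, -7.42 and -7.26. All 3 probes ranked the non-target array last and the arrays of slide row 2 below the other 3 of row 1, though A_19_P00322510 was above background on 6 arrays and A_19_P00322511 on 3. Probe A_19_P00810491 (chr21:38004978-38005426, reverse) instead stood apart on the empty-vector array, with -2.86, -6.45, -6.24, -5.76, -5.59, -6.39 and -5.82, and A_19_P00331165 (chr7:32954225-32979366, forward) gave -2.73, -6.08, -5.41, -3.41, -3.72, -3.46 and -3.58. In the opposite direction, A_19_P00805954 (chr6:5030205-5043823, forward) gave -6.30, -2.50, -5.54, -6.19, -4.99, -4.65 and -5.31, and A_19_P00807225 (chr21:44919572-44938572, forward) gave -5.84, -2.48, -4.19, -6.15, -6.49, -6.25 and -6.14. Both were highest on the non-target array. Probe A_19_P00326215 (chr1:214512902-214523621, forward) gave -2.92, 0.41, -2.51, -0.28, -3.22, -3.43 and -3.37, high on the non-target and CNOT6 shRNA arrays and low on the other 5, while a probe of the opposite strand of that locus, A_19_P00323737, kept within 0.86 to 1.68.

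Which lincRNA probes differed on each shRNA array was then asked. The rule was that a probe be at least 2-fold different, in the same direction, from each of the controls. The PARN shRNA array had the fewest, 7 higher and 7 lower, 0.226% of lincRNA probes. Of all probes tested 0.267% were called (0.0889% higher, 0.178% lower). Of the 14, 10 lay in the dimmest bin of signal. With spots marked as outliers kept there were 15 higher and 7 lower (0.355%, against 0.340% of the other probes). Without scaling there were 3 higher and 30 lower (0.533%, against 0.737% of the other probes).

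Probe A_19_P00811989 (chr6:14796596-15118246, reverse) changed most of any lincRNA probe on any array. Its level was 3.20 with PARN shRNA, and -2.74, -3.36, -2.43, -2.34, -2.42 and -2.29 on the empty-vector, non-target, CNOT6, CNOT6L, CNOT7 and NOC shRNA arrays. On the log2 scale it thus exceeded the empty vector by 5.94 and the non-target shRNA by 6.56. The probe of the opposite strand of the same span, A_19_P00811386, gave -3.85, -3.99, -4.38, -3.34, -4.07, -4.05 and -4.15 and did not rise with PARN shRNA. Probe A_19_P00327805, whose locus lies inside the span on the same strand, was above background on 1 array and at -8.63 with PARN shRNA. The difference was thus carried by 1 spot on 1 array.

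The other 2 highest with PARN shRNA were A_19_P00806265 (chr2:217959880-217973730, reverse), with -4.79, -4.89, -1.91, -5.50, -5.83, -5.94 and -6.13, and A_19_P00812761 (chr6:36115572-36151897, forward), with -5.65, -5.89, -3.32, -5.58, -5.92, -5.77 and -5.95. Each stood above all 6 other arrays, and no other lincRNA probe overlaps the first locus. Probe A_19_P00812761 has an opposite-strand partner, A_19_P00801666, at -4.91, -5.70, -5.48, -4.40, -4.74, -5.22 and -4.84, which was highest with CNOT6 shRNA. Of the lowest, A_19_P00812340 (chr7:45983575-46089425, reverse) was a bright probe with 3.06, 3.57, 1.47, 3.23, 3.50, 3.40 and 3.11. It fell with PARN shRNA alone, and the other 6 arrays kept within 0.51. Its opposite-strand partners A_19_P00804018 and A_19_P00807833 stood at -4.96 and -3.30 with PARN shRNA, among their values on the other arrays. Probe A_19_P00324314 (chr1:203237902-203248477, forward) gave -4.54, -3.53, -5.92, -4.02, -4.53, -4.65 and -4.43, and A_19_P00800792 (chr8:55303672-55311247, reverse) gave -3.53, -3.96, -5.94, -4.77, -4.48, -5.82 and -6.70. The latter was also called lower with CNOT7 and NOC shRNA and was lower on all 5 shRNA arrays than on either control, while the probe of its opposite strand, A_19_P00812630, spanned -4.01 to -3.51 over all 7 arrays.

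The CNOT6 shRNA array had 27 probes higher and 12 lower, 0.630% of lincRNA probes. Of all probes tested 0.37% were called (0.246% higher, 0.124% lower). With quantile normalization there were 24 higher and 24 lower (0.776%, against 0.428% of the other probes). Without scaling there were 0 higher and 248 lower, 4.01% of lincRNA probes, against 17.9% of the other probes. As a whole, lincRNA probes were shifted up on this array, by a median of 0.11 from the empty vector, 0.47 from the non-target shRNA and 0.31 from their mean, where the other probes had a median of 0.04 from the mean. The lincRNA median stayed 0.18 to 0.31 above that of the other probes under each scaling and background setting, although without scaling both medians were below 0, at -0.67 and -0.94. The CNOT6 shRNA array was the dimmest of the 7; the part of signal level in this shift was not tested.

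Probe A_19_P00319347 (chr2:168149680-168414843, forward) gave -4.20, -5.54, -4.94, -2.01, -5.47, -4.92 and -5.63 and A_19_P00316806 (chr2:2733679-2734729, forward) gave -5.01, -6.01, -5.83, -3.45, -4.83, -5.61 and -5.33. In both, the CNOT6 shRNA array stood above the other 6. A probe that overlaps the former on the same strand, A_19_P00328045, was at -4.51 with CNOT6 shRNA and at -5.37 to -4.40 over all arrays. A smaller change was that of A_19_P00319221 (chr4:36008565-36017494, reverse), at -3.92, -3.78, -3.58, -2.37, -3.04, -3.41 and -3.16, higher on every shRNA array than on either control. Of the 12 lower probes, 11 were also lower with NOC shRNA (11.6% of the 95 of that array). That overlap was not counted over all probes tested. Probe A_19_P00319730 (chr9:132101070-132109699, reverse) gave -3.86, -2.78, -4.11, -6.08, -4.69, -4.37 and -5.24. Probe A_19_P00801688 (chr2:216462380-216469880, forward) gave -1.47, -0.32, -2.26, -3.54, -1.78, -2.02 and -3.44, and A_19_P00315863 (chr2:216608542-216708445, reverse), further along chromosome 2, gave 0.05, 0.21, -0.0041, -1.73, -0.51, -0.06 and -1.49. In all 3 the lowest arrays were CNOT6 and NOC shRNA, which lie in different slide rows. A probe that overlaps the last locus on the same strand, A_19_P00802859, gave -1.13, -1.75, -2.01, -1.19, -1.05, -1.55 and -1.58 and did not share this.

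On the CNOT6L shRNA array 22 probes were higher and 41 lower, 1.02% of lincRNA probes. Of all probes tested 0.865% were called (0.222% higher, 0.643% lower). Without scaling there were 57 higher and 19 lower (1.23%, against 0.878% of the other probes). The median change of lincRNA probes was 0.03 against the control mean, with 0.02 for the others, and -0.05 and -0.03 after normexp correction. Probe A_19_P00329898 (chr1:234861727-234869377, reverse) gave -4.59, -5.78, -4.70, -5.01, -3.27, -5.01 and -5.20 and was highest on this array alone. Probe A_19_P00806730 (chr6:44006347-44063172, reverse) gave -1.19, -2.82, -3.13, -0.27, 0.05, -0.99 and -0.79, and A_19_P00809635 (chr21:16633404-16851904, forward) gave 0.01, -0.08, -0.14, 1.09, 1.22, 0.64 and 0.84. Both were raised on the CNOT6 shRNA array as well, the latter past the 2-fold rule, and stood lowest on the PARN shRNA array. A probe inside the locus of A_19_P00806730 on the same strand, A_19_P00801870, gave 0.43, 0.51, 0.66, 1.43, 1.45, 1.18 and 1.51, which follows the same order in part, with the CNOT6, CNOT6L and NOC shRNA arrays highest.

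Set against its row mates, the CNOT7 and NOC shRNA arrays, the CNOT6L shRNA array had 35 lincRNA probes higher and 20 lower at 2-fold, 0.889% where 0.379% of all probes were so called (0.276% higher, 0.104% lower). Probe A_19_P00806066 (chr11:6764642-6767690, reverse) gave -2.75, -3.41, -3.81, -3.72, -3.20, -5.83 and -5.79 and A_19_P00324187 (chr12:32597733-32653233, reverse) gave -3.61, -5.06, -5.76, -5.33, -4.71, -6.65 and -6.74; in both the CNOT6L shRNA array was among those of slide row 1, and the CNOT7 and NOC shRNA arrays were lowest. Probe A_19_P00326009 (chr9:100778454-100784354, reverse) gave -5.90, -5.79, -6.43, -5.78, -6.03, -3.91 and -4.13 and A_19_P00811910 (chr8:124471619-124499694, reverse) gave -4.98, -5.90, -5.78, -4.47, -5.15, -3.47 and -3.63, with CNOT7 and NOC shRNA highest.

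On the CNOT7 shRNA array 38 probes were higher and 69 lower, 1.73% of lincRNA probes. Of all probes 0.957% were called (0.231% higher, 0.726% lower). For NOC the numbers were 46 and 95, 2.28%, where 1.42% of all probes were called (0.388% higher, 1.03% lower). The balance of directions depended on the scaling. With quantile normalization, CNOT7 calls split into 91 higher and 61 lower, and without scaling into 106 and 18. NOC calls split into 110 and 90 (3.23%, against 1.35%), and into 41 and 53 (1.52%, against 0.831%). The median lincRNA change was -0.11 for CNOT7 and -0.10 for NOC shRNA, -0.03 and -0.02 with quantile normalization, and 0.38 and 0.09 without scaling. Within the signal bins, the called share for NOC shRNA was 2.57%, 1.97%, 2.64% and 1.23% of lincRNA probes from dim to bright, against 2.69%, 1.60%, 0.795% and 0.234% of the other probes. Thus the lincRNA share was the larger in all but the dimmest bin.

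**Figure D3:**
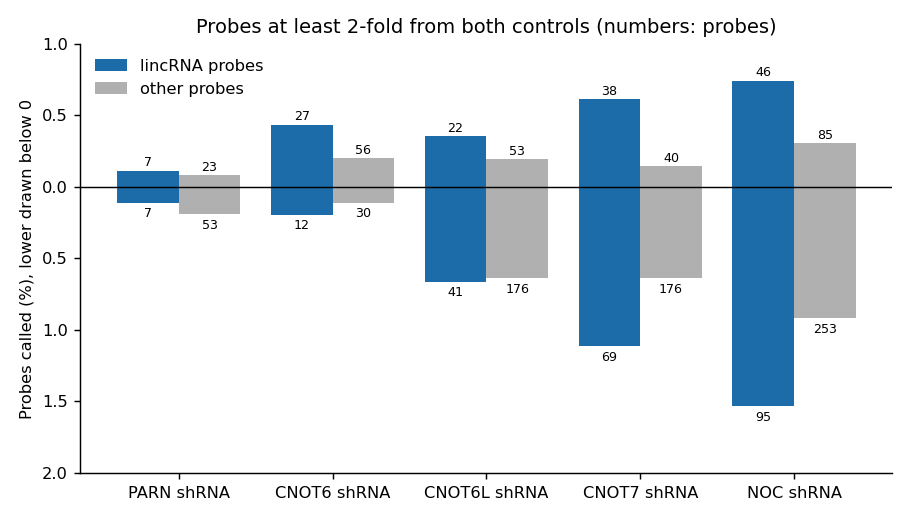
Share of probes above background on all arrays (%, y axis) that were at least 2-fold higher (bars above 0) or lower (bars below 0) than both controls with each of 5 shRNAs (x axis), for 6188 lincRNA and 27556 other probes; printed numbers are probes, and 1 array per group leaves no error bars. LincRNA calls run from 7 higher and 7 lower with PARN shRNA to 46 higher and 95 lower with NOC shRNA.

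The CNOT7 and NOC shRNA calls overlapped. Of the higher probes 29 were shared, 76.3% of the CNOT7 and 63.0% of the NOC list, and of the lower ones 47, 68.1% and 49.5%. The lists share both control arrays and the slide row. The overlap was not counted over all probes tested. Over probes, the SD of the differences between these arrays was 0.26 for lincRNA and for other probes, the smallest of any pair of arrays. Probe A_19_P00329369 (chr10:119266785-119280356, reverse) gave -4.12, -5.66, -5.20, -3.61, -3.64, -2.14 and -2.26, and A_19_P00808452 (chr11:70522127-70719227, reverse) gave -4.50, -5.93, -5.66, -3.25, -3.41, -2.61 and -2.75. Both were highest with CNOT7 and NOC shRNA, with CNOT6 and CNOT6L shRNA next, and the latter was called with these 4 shRNAs, the widest recurrence of any lincRNA probe. For A_19_P00329369, the opposite-strand partner A_19_P00332176 gave -2.69, -2.55, -2.67, -2.01, -2.55, -2.82 and -2.76 and did not follow. The locus of A_19_P00808452 is overlapped by 6 same-strand probes above background on all 7 arrays, of which A_19_P00323633 gave -2.76, -3.73, -3.54, -2.51, -2.72, -2.56 and -2.46, lowest on the non-target and PARN shRNA arrays, and A_19_P00318525 kept within -5.25 to -4.72.

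Only on the CNOT7 shRNA array, A_19_P00318758 (chr2:216397855-216486648, forward) rose, with -5.44, -5.45, -5.46, -4.93, -5.26, -3.43 and -5.71, and likewise A_19_P00811053 (chr7:20258275-20270775, forward), with -4.19, -4.10, -4.25, -3.98, -4.01, -2.26 and -4.21. Each was level within 0.78 on the other 6 arrays. Probe A_19_P00800122 (chr8:599650-609000, reverse) was lowest on this array, with -1.38, -1.13, -1.08, -0.32, -0.46, -2.43 and -0.55, as was A_19_P00800550 (chrX:15690954-15751379, reverse), with -3.47, -3.51, -3.53, -3.19, -3.11, -4.63 and -3.56. On the NOC shRNA array alone, A_19_P00812525 (chr8:134350568-134428443, reverse) gave -2.86, where the other 6 arrays were at -6.01 to -4.61, and A_19_P00324397 (chr19:52576813-52597711, forward) gave -2.96, where the others were at -6.21 to -4.53. On the same strand, the further probes inside the former locus that were above background on all 7 arrays, A_19_P00317149, A_19_P00323256 and A_19_P00807046, stood at -5.44, -3.78 and -0.51 with NOC shRNA, each within its values on the other arrays. Probe A_19_P00331241 (chr13:24717800-24728575, forward) gave -3.70, -2.73, -4.79, -5.44, -3.76, -4.06 and -5.80, called lower with PARN, CNOT6 and NOC shRNA. Set against row mates only, 10 lincRNA probes were higher and 2 lower for CNOT7 shRNA (0.194%, where 0.116% of all probes were called, 0.0948% higher and 0.0207% lower). For NOC shRNA 3 were higher and 5 lower (0.129%, where 0.172% were called, 0.0948% higher and 0.0771% lower). This rule needs a difference from both mates, and these 2 arrays are mates of each other, 2-fold apart in 28 lincRNA probes (0.452%). From the CNOT6L shRNA array alone, CNOT7 shRNA differed 2-fold in 99 lincRNA probes (1.60%) and NOC shRNA in 134 (2.17%). Such pairs were not counted over all probes.

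Over all 5 shRNAs, 229 lincRNA probes were called at least once (3.70%, where 2.5% of all probes were, 0.895% higher and 1.62% lower), 102 of them higher, 128 lower and 1 both. Among lincRNA probes, lower calls recurred more widely than higher ones. Lower with 3 shRNAs were 27 probes, while 1 was higher with 3 and 1 with 4. Of the 27, 23 were lower with CNOT6L, CNOT7 and NOC shRNA, the 3 arrays of slide row 2. Recurrence over all probes tested was not counted, so whether it differs for lincRNA probes is not known. The balance of directions also depended on the scaling, as given above. No probe was called with all 5.

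The arrays were therefore also set row against row, a comparison chosen after seeing the data. On each of the 3 arrays of slide row 2, 20 lincRNA probes were at least 2-fold below the lowest of the 4 arrays of row 1, and 0 were above the highest by as much. This is 0.323% of lincRNA probes, where 0.252% of all probes tested met the rule, 0.243% lower and 0.00889% higher. With quantile normalization the count was 18 lower and 0 higher (0.291%, against 0.174% of the other probes). Without scaling it was 1 lower and 3 higher (0.0646%, against 0.138%). The 20 loci lie on 10 chromosomes, 12 on the forward and 8 on the reverse strand, and span 257 to 509301 bases. Their mean on row 2 was below that on row 1 by 1.40 to 2.89 on the log2 scale, with a median of 1.93, where the median difference over all tested lincRNA probes was -0.14 (SD over probes 0.44). Of the 20, 18 had a mean level above the median of lincRNA probes. Only probes above background on every array were tested. A dim probe that fell below background on row 2 could therefore not be among the 20. This count thus cannot tell whether dim probes were affected less often.

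Probe A_19_P00325143 (chr1:35303238-35319036, reverse) gave -0.85, -0.47, -0.62, -0.64, -3.57, -3.40 and -3.64. Probe A_19_P00802400 (chr6:81144331-81171231, reverse) gave 0.86, 1.20, 0.89, 0.89, -1.73, -1.34 and -1.90, and A_19_P00809966 (chr8:130231743-130741043, forward) gave 0.20, 0.59, 0.73, 0.45, -2.67, -1.91 and -2.29. Within either row these probes varied by 0.25 to 0.76, whereas the gap between the rows was 2.11 to 2.55. Further members were A_19_P00810706 (chr13:32513725-32545975, reverse), with 1.57, 2.0, 1.80, 1.68, -0.48, -0.13 and -0.37, A_19_P00332531 (chr4:3676927-3688227, reverse), with -2.13, -1.86, -1.94, -1.83, -4.16, -4.01 and -4.35, and A_19_P00321097 (chr2:23570524-23574720, forward), with 0.18, -0.60, -0.98, 0.08, -2.62, -2.58 and -2.82. The brightest of the 20 was A_19_P00813208 (chr8:26294083-26309833, reverse), with 5.92, 6.92, 6.52, 6.70, 4.36, 4.43 and 4.48. In all of these the arrays of slide row 2 lay close together and below both controls.

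**Figure D4:**
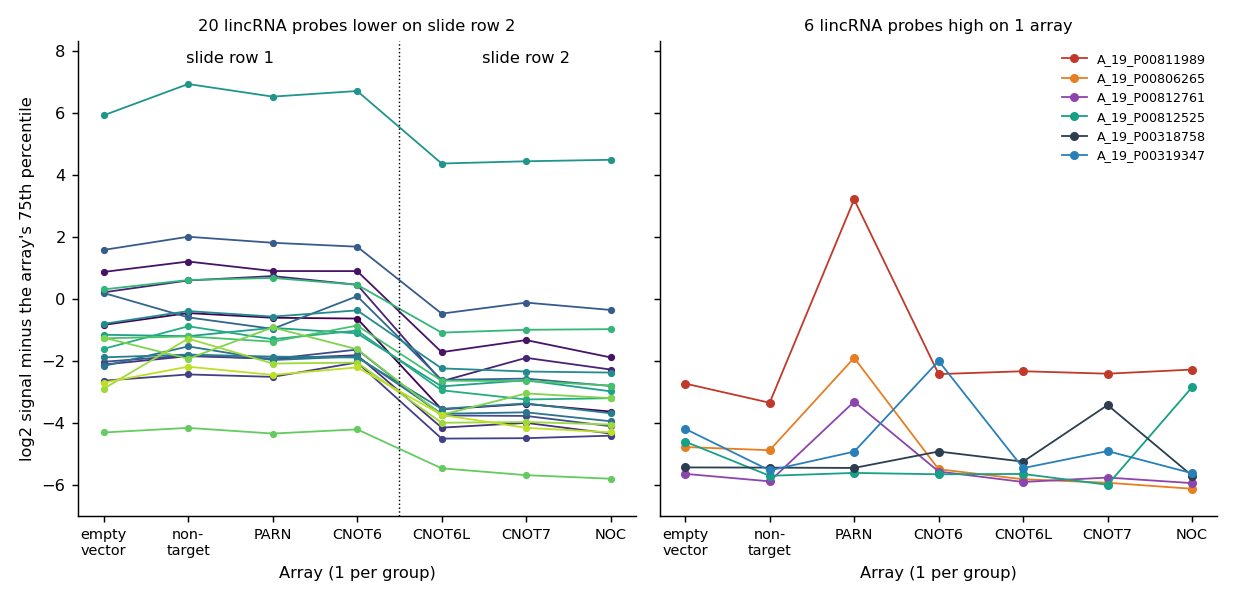
Levels (log2 signal minus the 75th percentile of the array, y axis) on the 7 arrays (x axis, 1 array per group; lines join the points of 1 probe): left, the 20 lincRNA probes that were at least 2-fold lower on each array of slide row 2 than on any array of row 1; right, 6 lincRNA probes that stood apart on 1 array. On the left every line steps down at the dotted line between the rows; on the right A_19_P00811989 reaches 3.20 with PARN shRNA and is below -2 elsewhere.

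Other probes of the same stretches were then looked at. Of 19 tested lincRNA probes that overlap one of the 20 loci on the same strand, 15 were lower in the mean of row 2 but 0 by 2-fold, and their differences ran from -0.64 to 0.90 with a median of -0.23. Of 35 on the opposite strand, 1 was, with a median of -0.05. Beside A_19_P00325143, the overlapping same-strand probe A_19_P00805861 gave -0.25, -0.38, -0.18, 0.44, 0.35, -0.14 and 0.31. Beside A_19_P00802400, A_19_P00322844 on the same strand gave -2.13, -2.90, -2.89, -1.55, -1.70, -1.36 and -1.34; it was higher on row 2 than on both controls.

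Only a minority of loci had several probes on the array, and these were used to see whether a change at one probe was met by another. In 416 loci with at least 2 tested probes, counted with strand, there were 434 pairs of probes, which share their 7 RNA samples. The correlation of their changes against the control mean, across pairs, was 0.56 for PARN, 0.53 for CNOT6, 0.55 for CNOT6L, 0.42 for CNOT7 and 0.43 for NOC shRNA. In 1668 pairs of probes on opposite strands of 1 region it was -0.04, 0.01, 0.06, 0.02 and 0.00. The median absolute difference between same-strand probes was 0.18 to 0.27 on the log2 scale, and between opposite strands 0.32 to 0.43. For the difference between the controls, r was 0.50 on the same strand and 0.07 on opposite strands. Pairs are not independent replicates, so these are descriptions.

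**Figure D5:**
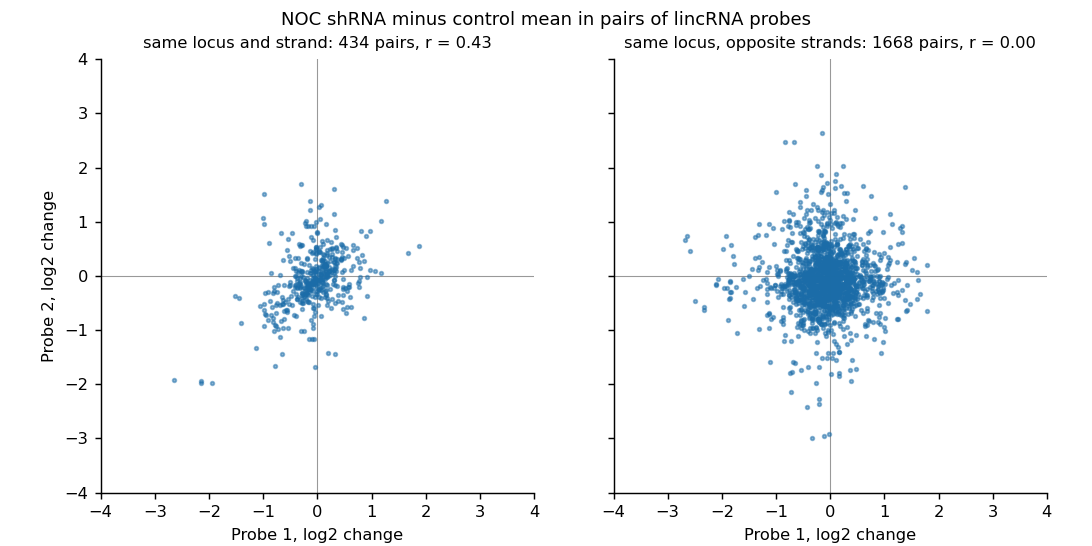
Log2 change with NOC shRNA (minus the control mean) of one probe (x axis) and the other probe (y axis) of a pair of lincRNA probes: left, 434 pairs of the same locus and strand (r = 0.43); right, 1668 pairs on opposite strands of a region (r = 0.00). Each point is a pair; the points lean along the diagonal on the left and show no slope on the right.

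Of the called probes few had a partner. For NOC shRNA, 11 of the 95 lower probes had a further tested probe of the same locus and strand, and in 5 of the 11 a further probe was called too. For CNOT7 shRNA it was 4 of 7 and for CNOT6L shRNA 2 of 6. Probes were counted one by one, so a locus counts once for each of its called probes. The 5 are those at chr5:131694766-131695812 and chr4:24814752-24827052. The 4 are those at chr16:22410746-22418919 and chr6:42725472-42759772, and the 2 those at the latter. Of the higher calls, 0 of 5, 0 of 6 and 0 of 3 had a partner that was called too. No call with PARN shRNA had a tested partner. These locus calls were chosen after their values were seen. At chr5:131694766-131695812, forward, 3 probes were lower with NOC shRNA: A_19_P00316780 gave -3.75, -4.53, -5.23, -5.05, -4.66, -5.79 and -6.30, A_19_P00316781 gave -4.76, -5.23, -5.81, -5.78, -5.40, -6.15 and -6.93 and A_19_P00316782 gave -4.31, -5.36, -5.76, -6.10, -5.27, -6.32 and -6.82. In all 3 the NOC shRNA array was the lowest and the CNOT7 shRNA array next. At chr4:24814752-24827052, forward, A_19_P00331118 gave 1.40, -0.24, -0.08, -0.08, -0.39, -0.75 and -2.06 and A_19_P00802593 gave 0.69, -0.57, -0.56, -0.51, -0.90, -1.23 and -1.86, again lowest with NOC shRNA and highest on the empty-vector array.

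At chr6:42725472-42759772, forward, A_19_P00326821 gave 1.03, 1.52, 1.20, 0.76, -0.15, -0.08 and 0.15 and A_19_P00806028 gave 0.99, 1.51, 1.11, 0.74, -0.33, -0.30 and -0.07, and A_19_P00803329, whose locus (chr6:42758417-42759055, forward) lies at the end of that span, gave 1.04, 1.66, 1.19, 0.85, -0.11, -0.02 and 0.26. All 3 probes were lower on each array of slide row 2 than on any array of row 1. At chr16:22410746-22418919, reverse, A_19_P00321180 gave -5.33, -5.92, -5.21, -5.97, -6.92, -7.03 and -6.25 and A_19_P00321181 gave -4.87, -5.31, -4.67, -4.86, -6.25, -6.48 and -5.88, lowest with CNOT7 shRNA. Neighbouring probes could also part. Probe A_19_P00811910, at chr8:124471619-124499694, reverse, was called higher with CNOT7 and NOC shRNA, whereas A_19_P00325935, which overlaps it on the same strand (chr8:124472369-124499694, reverse), was called lower with both, at -4.02, -4.32, -4.81, -4.36, -4.62, -6.14 and -5.97.

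Both strands were probed in 2114 regions. In 1421 of them (67.2%) at least 1 probe of each strand was above background on all 7 arrays, in 541 (25.6%) this held for 1 strand, and in 152 for neither.

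The 5 shRNA arrays were compared as a group with the 2 controls by limma, where the spread is that among unlike shRNAs and unlike control plasmids. At a Benjamini-Hochberg threshold of 0.05, 0 lincRNA probes and 0 of all 33744 probes were called (limma, lowest adjusted p = 0.987). At an unadjusted p under 0.05 there were 293 lincRNA probes, 189 higher and 104 lower, which is 4.73% where 3.96% of all probes passed (2.25% higher, 1.72% lower). Fits without 1 of the controls leave a single control array, so their counts are not given. Without regard to size, 240 lincRNA probes were higher and 112 lower on all 5 shRNA arrays than on both controls (5.69%, where 6.45% of all probes were, 3.22% higher and 3.23% lower). Of the other probes 6.62% were so. Quantile normalization gave 320 higher and 217 lower (8.68%, against 7.39% of the other probes), and no scaling 0 and 87 (1.41%, against 1.54%).

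By the gap between the groups, the probes with the widest gap included 3 described above or below with larger changes on single arrays, A_19_P00811989, A_19_P00800792 and A_19_P00807452. Probe A_19_P00808184 (chr20:5075425-5080425, reverse) gave -2.43, -2.93, -2.03, -1.37, -1.63, -1.79 and -1.30, A_19_P00809400 (chr18:10552875-10561233, reverse) gave -1.87, -1.82, -1.48, -1.05, -1.19, -1.42 and -1.07, and A_19_P00329220 (chr20:56829544-56884069, reverse) gave -2.14, -2.21, -1.85, -1.48, -1.66, -1.66 and -1.67. In these the lowest shRNA array was that of PARN, 0.28 to 0.39 above the higher control, and A_19_P00808184 passed the 2-fold rule with CNOT6 and NOC shRNA. Probe A_19_P00800959 (chr15:40336258-40358304, reverse) gave 0.31, 0.23, 0.62, 1.0, 0.84, 0.85 and 1.08, whereas the other probe of its locus, A_19_P00803313, gave -3.75, -4.23, -4.11, -3.46, -3.58, -3.46 and -3.17 and was on the PARN shRNA array between the controls. In the lower direction, A_19_P00322295 (chr8:90737074-90737855, forward) gave -4.70, -4.82, -5.51, -5.48, -5.88, -5.86 and -6.06, and A_19_P00320560 (chr5:42985499-42991254, forward) gave -3.83, -3.92, -4.80, -4.57, -4.78, -5.42 and -5.12. The gaps were 0.66 and 0.65, the first was called lower with CNOT6L, CNOT7 and NOC shRNA, and the second with CNOT7 and NOC shRNA. Probe A_19_P00807452 (chr14:53687975-53843100, forward) gave -2.58, -5.07, -5.87, -6.23, -5.58, -6.48 and -6.68, with the controls themselves far apart, and A_19_P00800729 (chr1:225175977-225243477, forward) gave -4.69, -4.32, -5.19, -5.62, -5.33, -5.39 and -6.16. Of the other probes of that locus, A_19_P00800077 gave -4.13, -6.03, -4.96, -5.26, -6.25, -6.37 and -5.86, which did not separate shRNA from control arrays.

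Some known long noncoding RNAs could be found by gene symbol among probes outside the lincRNA set; whether lincRNA probes also cover them was not examined. Of a list of 30, 18 had a probe with such a symbol and 16 of these were above background on all 7 arrays. Called higher or lower with any shRNA were 0 of the 16, where 2.5% of all probes tested were called with at least 1. So few probes cannot show a difference from that share. GAS5, a host of small nucleolar RNAs, gave 6.41, 6.51, 6.48, 6.96, 6.57, 6.31 and 6.49. MALAT1, a nuclear RNA, gave 2.06, 2.32, 2.33, 2.32, 2.59, 2.36 and 2.91 and was highest with NOC shRNA. TERC, the telomerase RNA, whose 3' end PARN is known to trim, gave 0.62, 1.16, 1.43, 1.11, 1.14, 1.08 and 1.14. It was highest with PARN shRNA, 0.27 above the non-target array, while the controls differed by 0.54. KCNQ1OT1, an imprinted antisense RNA, gave -0.88, -2.78, -1.03, -1.25, -2.30, -1.94 and -1.94 and was lowest on the non-target array.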

How the data were processed

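RNA (0.2 µg) of 7 NCI-H520 samples was labelled and hybridised by the authors to 1-colour Agilent arrays (design 028004, hg19), 1 array per group. The deposited scanner files, made with Feature Extraction 10.7.3.1, hold the processed signal as an intensity per spot, already background-subtracted; the deposited series table holds log2 values of the same arrays and served as an alternative. Each array had 62976 spots; controls and outlier-marked spots were dropped. Spots of 1 probe were averaged, and log2 intensity minus the 75th percentile of the gene probes of that array was used. A probe counted as detected where the software flagged it as well above background, and changes were computed over the 33744 probes flagged on all 7 arrays.

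With 1 array per group there is no test for a single shRNA: a probe was called when at least 2-fold different in the same direction from both controls. The study's methods give a fold cut-off of 2, while its results state cut-offs of 2 on the log2 scale, which is 4-fold; both were computed. The number of arrays limits the precision. The 5 shRNA arrays were compared with the 2 controls by limma 3.58.1 (R 4.3.3, trend, Benjamini-Hochberg over all probes tested), and shares by exact permutation (scipy 1.17.1, Python 3.11.15). The limma step was tested on simulated data. No label names separate cultures, so p-values measure the spread between these arrays. For named probes, the rule took per shRNA the 3 highest and 3 lowest calls by the smaller difference from a control, the 5 brightest probes, the 3 extremes each way between the controls, up to 5 each way beyond both controls on all shRNA arrays, the 3 widest and narrowest ranges, and the 2 extremes each way against row mates; further probes overlapping them, and members of the comparison between slide rows, were chosen after their values were seen. The members and lists were chosen with earlier results of these data known.

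Gene symbols came from RefSeq (GRCh38.p14) by accession, for 24827 probes and 0 lincRNA probes; for CNOT6 the target accession in the labels was used. Loci are those in the probe names, with no genome sequence. Alternatives were a 4-fold threshold, quantile normalization, no scaling, a percentile over detected probes, normexp background correction (offset 50, on median signals), the series table, outlier spots kept, a bound for undetected probes, and each control left out.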

Additional observations from a re-analysis of the deposited data

How the results depend on the processing

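With 1 array per group, call counts depended most on having both controls. Against a single control, the number of lincRNA probes called was 431 to 526 for PARN, 246 to 1040 for CNOT6, 606 to 707 for CNOT6L, 684 to 728 for CNOT7 and 687 to 747 for NOC shRNA (14 to 141 with both). At 4-fold the counts were 3, 3, 6, 5 and 10, and after normexp correction 5, 22, 33, 55 and 70. Without scaling PARN gave 33 (0.533%, against 0.737% of the other probes) and CNOT6 248 (4.01%, against 17.9%). With outlier spots kept PARN gave 22. With undetected probes set at a bound PARN gave 72, CNOT6 70, CNOT7 181 and NOC 220. Against row mates CNOT7 gave 12 and NOC 8. Between the controls, the count of 1177 became 119 at 4-fold, 558 with quantile normalization, 2596 without scaling, 299 after normexp and 2084 with the bound. Without scaling, the 20 probes lower on slide row 2 became 1 lower and 3 higher. The 352 probes beyond both controls on all shRNA arrays became 537 with quantile normalization and 87 without scaling. The alternatives for both counts were chosen after seeing the data. The limma count of lincRNA probes was 0 in every setting that kept both controls. By the less strict flag for a positive and significant signal, detection was 96.1% for empty vector, 89.7% for non-target, 90.0% for PARN, 92.0% for CNOT6, 93.8% for CNOT6L, 93.5% for CNOT7 and 93.4% for NOC shRNA. The cause of these changes was not tested. Of 288 alternative values of named probes, 197 moved by no more than a spread, 91 moved by more and 0 changed sign. The spread was the probe's absolute difference between the controls, divided by the square root of 2. It is wide where the controls differ, so probes picked for that difference pass it easily. The values were calls or extreme control differences, so a change of sign was unlikely from the start. One alternative, the series table, is nearly the main setting. It shifted the median of all probes by -0.003 for PARN shRNA and by less in size for the others. Without scaling, the median of all probes shifted by -0.98 for CNOT6 shRNA and 0.49 for CNOT7 shRNA. No paired analysis was possible because each group holds 1 array. Dim lincRNA probes limit what can be seen, and group and slide row cannot be told apart for CNOT6L, CNOT7 and NOC shRNA.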
